A study of Mus musculus with 12 samples.

Results

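The baseline gene expression of HL-1 cells was described from the 4 vector control libraries of a series of 12 RNA sequencing libraries. HL-1 is a mouse line derived from an atrial heart muscle tumour of a transgenic mouse, and the labels call it a line of cardiac muscle. The controls (CON) carry the genotype WT and were given viruses with the lentiCRISPRv2 and pCDH vectors, described as stably expressed vector. The other 2 groups, of 4 libraries each, were given a CRISPR guide against Wdr62 (KD), or that guide and then WDR62 of wild-type sequence with a flag tag from the pCDH vector (RE). All 3 groups were infected and grown in DMEM with 10% fetal bovine serum, so no library comes from uninfected cells. The line stands for a single tumour lineage, and nothing in the labels says whether the 4 controls came from separate cultures, so the spread between them may be technical. The 4 libraries were chosen by their column names, WT1 to WT4 in the deposited table, which match the genotype of the CON samples and carry no other link to a sample number. No contrast between groups was made and no test was run: genes were ranked by their mean over the 4 libraries. In places, marker levels in KD and RE are set beside those of the controls without a test.

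Atrial heart muscle cells are electrically coupled, contract through sarcomeres of cardiac myosin, actin, troponin and titin, release calcium from the sarcoplasmic reticulum through the ryanodine receptor Ryr2, and store the natriuretic hormone made from Nppa in granules. A small set of transcription factors (Nkx2-5, Gata4, Tbx5, Mef2c, Hand2, Tbx20) sets up this programme in the embryo. Fibroblasts and other mesenchymal cells lack sarcomeres and secrete collagens, fibronectin and matrix-binding proteins. The lists below follow this division: the contractile, electrical, regulatory and hormonal genes of the heart, then other muscle, connective tissue and other cell types, position along the body, the cell cycle, metabolism, and secreted proteins.

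Levels are in TPM, a measure of transcript number that is corrected for transcript length and sums to 1000000 in each library, so levels of different genes can be set side by side but a rise of some genes lowers all others. A gene was called expressed at 1 TPM or more in all 4 libraries. Where 4 values are given they are those of WT1, WT2, WT3 and WT4, in that order, and errors are SD with n = 4 libraries. Of 23184 gene symbols, 10946 (47.2%) were expressed, 7506 (32.4%) were listed at 0 in all 4 libraries, and 4732 fell between. These shares are the background for each list count below. A value of 0 in such a table can be a failed estimate, so such genes are called listed at 0. Sequencing depth is unknown, because TPM keeps no count. Between 14221 and 14430 symbols were above 0 in a library. In bulk RNA, a gene made by few cells and a gene made weakly by all of them cannot be told apart.

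WT4 stood apart from the other 3 libraries. The Spearman correlation over all symbols was 0.978 to 0.979 among WT1, WT2 and WT3 and 0.955 to 0.963 between each of them and WT4. The difference followed transcript length: among the 2259 symbols whose transcripts reached 4318 bases or more, the median difference of WT4 from the mean of the other 3 was -1.41 on the log2(TPM + 1) scale, and among those of up to 1486 bases it was 0.34. In the same groups WT1 stood at 0.60 and -0.12, WT2 at 0.55 and -0.12, and WT3 at 0.28 and -0.04. The mean that each of these was set against includes WT4, so their values in part mirror the difference of WT4. The median coefficient of variation of an expressed gene was 28.0% over the 4 libraries and 9.20% without WT4. For 120 expressed genes the mean changed by more than 1.5 times when WT4 was left out, and the mean without WT4 is given beside each expressed gene of this kind named below. What sets WT4 apart was not tested.

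**Figure D1:**
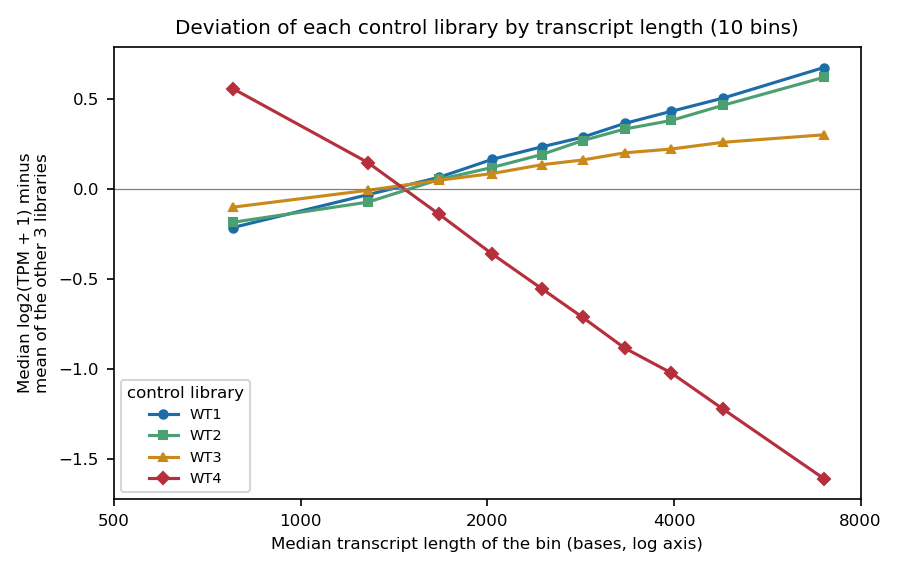
Median difference of each control library from the mean of the other 3 on the log2(TPM + 1) scale (y axis) against median transcript length in 10 bins of symbols with a mean of at least 1 TPM (x axis, bases, log axis). WT4 falls from 0.56 in the shortest bin to -1.61 in the longest, while the other 3 libraries rise with length. For each of those 3 the comparison mean includes WT4, so their rise in part mirrors its fall.

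The most abundant messages were those of S100a4, Lgals1 and Fth1. S100a4, a calcium-binding protein often used as a fibroblast marker, stood at 28058, 29399.9, 29236 and 42737 TPM and was the highest symbol in the table. Lgals1, which encodes the sugar-binding protein galectin 1, stood at 20204, 20196, 23114 and 27807 TPM. Fth1, the heavy chain of the iron store ferritin, stood at 5940.0, 6171, 7471 and 10954 TPM. All 3 were highest in WT4, and S100a4 did not overlap Lgals1, whose 4 values in turn lay above those of Fth1. Behind them came the ribosomal proteins Rpl8 (7302 ± 993 TPM), Rps21 (6126 ± 2189) and Rpl41 (5871 ± 3544) and the intermediate filament vimentin (Vim, 7019 ± 704). In all, 13 of the 50 most abundant symbols were ribosomal protein names.
Among the other leading genes were the membrane-binding annexins Anxa2 (3425 ± 164 TPM) and Anxa1 (2802 ± 202), the interferon-induced membrane protein Ifitm3 (4681 ± 1868) and the translation factor Eef1a1 (4723 ± 721). Secreted proteins were also at the top: Spp1, which encodes the matrix protein and cytokine osteopontin, stood at 4929, 4652, 4623 and 4249 TPM, and the chemokines Cxcl1, Ccl7 and Ccl2 and the collagen Col3a1 had means of 3722, 3634, 3399 and 2955 TPM. The 50 most abundant symbols together took 18.4%, 18.7%, 20.3% and 26.0% of the TPM, which was 19.2% in the mean without WT4. At the other end of this scale, 1311 symbols were at 100 TPM or more in all 4 libraries and 88 at 1000 or more, and the median expressed symbol stood at 30.6 TPM.

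Most defining genes of atrial heart muscle were not expressed. Of 21 such markers, 5 were expressed (Tnnt2, Gata4, Nkx2-5, Myl4 and Mef2c), 14 stayed below 1 TPM in all 4 libraries and 7 of those were listed at 0 in all 4. Of all symbols, 47.2% were expressed and 32.4% listed at 0, so the count at 0 was close to the share of all symbols. The same 14 markers were below 1 TPM in the 8 KD and RE libraries as well, and 6 were listed at 0 in all 12. The summed level of the 21 markers was 30.9 to 49.0 TPM in the control libraries, 41.5 to 49.9 in KD and 42.7 to 66.9 in RE. These markers therefore bear out the label of cardiac muscle in small part at most. Whether the 5 expressed ones mark heart or other muscle was not tested, and the libraries are called by their group name here. Of the defining markers of fibroblasts, 7 of 8 were expressed, with a summed level of 10411 to 11497 TPM. Vim alone stood at 6330 to 7936 TPM and Col3a1 was the next largest part, so the sum says little about the other markers. Thy1 was listed at 0 in all 4 libraries.

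**Figure D2:**
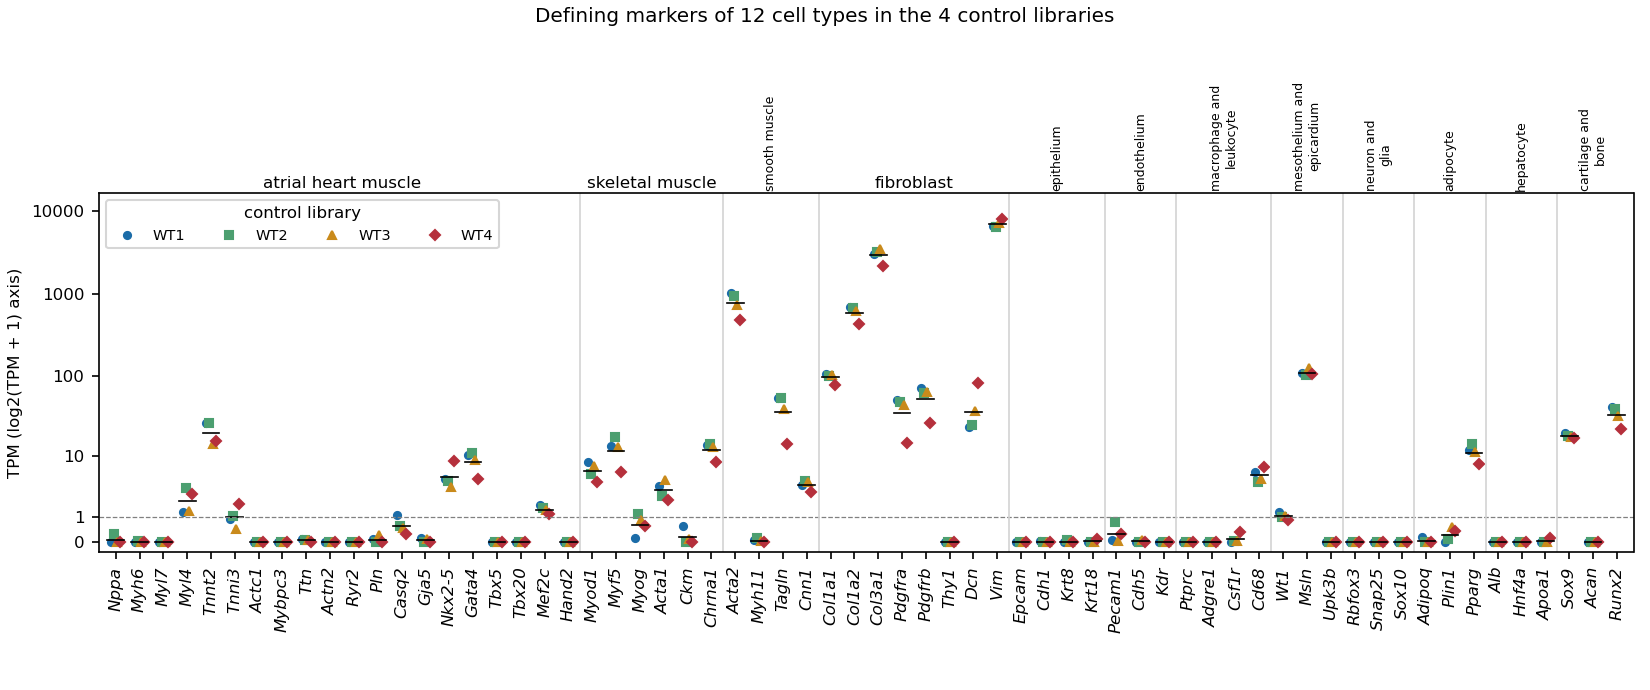
TPM of 64 of the 65 defining markers of 12 cell types (x axis) in the 4 control libraries, on a log2(TPM + 1) axis; each point is a library, the bar is the mean of the log2 values and the dashed line is 1 TPM. Of the atrial markers, Tnnt2, Gata4, Nkx2-5, Myl4 and Mef2c lie above the dashed line in every library and Myl7, Actc1 and Tbx5 lie at 0, while Col1a1, Col1a2, Col3a1 and Vim lie near or above 100 TPM in every library.

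Of 29 cardiac sarcomere genes, 6 were expressed (20.7%, against 47.2% of all symbols). The 9 listed at 0 in all 4 libraries were a share close to the 32.4% of all symbols. The median member stood at 0.0489 TPM, against 1.17 TPM for all symbols. Genes of the thick filament were at or near 0 apart from the light chain Myl4: the atrial myosin heavy chain Myh6 was listed at 0, 0.0237, 0 and 0.00817 TPM, the ventricular chain Myh7 at 0, 0, 0 and 0.00813, and myosin-binding protein Mybpc3 and the atrial light chain Myl7 at 0 in all 4. Titin (Ttn), the spring that spans the sarcomere, stood at 0.0942, 0.0515, 0.0487 and 0.00346 TPM. The Z-disc protein Actn2 and the cardiac actin Actc1 were listed at 0 in every library. Some thin filament genes were present. Cardiac troponin T (Tnnt2) stood at 26.7, 26.2, 14.4 and 15.7 TPM, troponin C (Tnnc1) at 16.7, 13.2, 10.8 and 31.9 and cardiac troponin I (Tnni3) at 0.873, 1.04, 0.428 and 1.86. WT1 and WT2 were the high libraries for Tnnt2 and WT4 was the high one for Tnnc1 and Tnni3, and Tnni3 crossed 1 TPM in some libraries and not in others. The atrial essential light chain Myl4 was at 1.31, 3.51, 1.35 and 2.76 TPM. The highest members of the list were the tropomyosin gene Tpm1 (761 ± 116 TPM), which is also used by the cytoskeleton of non-muscle cells, and Pdlim5 (84.8 ± 36.8), which links the Z-disc and actin bundles to kinases.

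Of 32 genes for channels and calcium handling, 8 were expressed (25.0%, against 47.2% of all symbols). The 10 listed at 0 were a share close to the 32.4% of all symbols. The calcium release channel Ryr2 was listed at 0, 0.00821, 0.00687 and 0 TPM, the SERCA inhibitor phospholamban (Pln) at 0.0736, 0, 0.2205 and 0 and the calcium store protein Casq2 at 1.09, 0.552, 0.4601 and 0.251. The L-type calcium channel Cacna1c, the sodium-calcium exchanger Slc8a1, the pacemaker channel Hcn4 and the potassium channel Kcnq1 were listed at 0 in all 4 libraries. Of these 7 genes none reached 1 TPM except Casq2 in WT1. Present were the widely used calcium pump Atp2a2 (289.7, 291, 259.8 and 67.02 TPM, lowest in WT4), the junction gene Jph2 (15.2, 14.6, 14.3 and 14.8), the potassium channels Kcnj2 (25.9 ± 8.47) and Kcnh2 (6.27 ± 0.232), and Bves (52.6 ± 10.1), a cAMP-binding membrane protein of heart and skeletal muscle. Kcnh2 and Jph2 differed little between the libraries, WT4 included.

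Gap junction genes were unequal. Gja1, which encodes connexin 43, stood at 720.2, 727, 701 and 531 TPM and made up 97.1% ± 0.774 of the summed TPM of 5 connexin genes. Gjc1 (connexin 45) stood at 22.1, 29.1, 20.03 and 10.6 TPM, below every value of Gja1. The atrial connexin Gja5 was listed at 0.107, 0, 0.0802 and 0 TPM, and its exons overlap those of Gpr89 on the other strand, so reads of the pair cannot be told apart where strand is not used. Among 14 genes of the intercalated disc, the junction between heart muscle cells, 8 were expressed (57.1%, against 47.2% of all symbols). Among them were the adherens junction genes N-cadherin (Cdh2) at 27.5, 28.6, 18.7 and 9.79 TPM, alpha-catenin (Ctnna1) at 253 ± 83.9 and vinculin (Vcl) at 129.9 ± 56.6. Of the desmosome, plakoglobin (Jup, 13.1 ± 3.001) and plakophilin 2 (Pkp2, 10.2 ± 3.78) were expressed, while desmoplakin (Dsp) and the desmosomal cadherins Dsg2 and Dsc2 were listed at 0 in all 4.

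Of 24 cardiac transcription factor genes, 13 were expressed (54.2%) and 7 were listed at 0. Both shares were close to those of all symbols (47.2% and 32.4%). Nkx2-5, the homeobox factor of early heart muscle, stood at 4.702, 4.44, 3.597 and 8.504 TPM, with WT4 highest. Gata4, a zinc finger factor of heart and gut, stood at 10.3, 10.97, 8.72 and 4.82 TPM, with WT4 lowest. Mef2c was just above the threshold at 1.78, 1.55, 1.42 and 1.16 TPM, below its relatives Mef2a (66.5, 69.9, 57.4 and 24.9) and Mef2d (56.5, 52.5, 55.1 and 9.15), which are used in many tissues; Mef2d overlaps a transcript on the other strand. Tbx5, Tbx20, Hand1 and Hand2 were listed at 0 in every control library, and Gata6 and Isl1 stayed below 1 TPM. Prrx1, a factor of limb and trunk mesenchyme, stood at 117, 112, 105 and 77.4 TPM and Shox2, of the limb and the inflow tract of the heart, at 43.2, 47.9, 41.5 and 23.1, each above Nkx2-5 and Gata4 in every library. Nr2f2, a nuclear receptor that marks atrial identity but is also made by mesenchyme and veins, stood at 23.6, 26.2, 19.4 and 12.7 TPM, and its relative Nr2f1 at 11.5 ± 1.49. Shox2 shares exon sequence with Rsrc1 on the other strand (38.9 against 52.6 TPM), so its level is uncertain.

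Hormone and receptor genes of the heart were scarce, with 3 of 13 expressed (23.1%). The atrial natriuretic peptide gene Nppa was listed at 0, 0.258, 0 and 0 TPM, and Nppb, which encodes the related B-type peptide, at 1.28, 0.568, 1.396 and 2.57. Adrb1, the main beta-adrenergic receptor of heart muscle, was listed at 0 in all 4 libraries. The muscarinic receptor Chrm2, which slows the atrium, was listed at 0. The natriuretic peptide receptors Npr1 (2.39, 1.73, 2.59 and 1.71 TPM) and Npr3 (2.74, 2.35, 2.16 and 0.975) were low, and the endothelin receptor Ednra stood at 3.03, 2.56, 2.47 and 1.23. Over the 5 cardiac lists, 37 of 110 symbols were expressed (33.6%, against 47.2% of all symbols). Of the 110, 33 were listed at 0 in all 4 libraries, a share close to the 32.4% of all symbols.

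Of 20 smooth muscle genes and other targets of the serum response factor (SRF), 17 were expressed (85.0%, against 47.2% of all symbols), with a median member at 28.1 TPM. This was the largest share among the muscle lists. The list also holds genes not restricted to smooth muscle, such as desmin, vinculin and SRF itself, so its share does not mark that cell type. Acta2, smooth muscle actin, stood at 1029, 936, 734 and 476 TPM. Transgelin (Tagln) stood at 54.3, 54.3, 39.3 and 14.4 TPM and calponin (Cnn1) at 3.86, 4.43, 4.29 and 3.07. WT4 was the lowest library for all 3. The smooth muscle myosin heavy chain Myh11, the most restricted gene of that cell type, was listed at 0.0479, 0.108, 0.01797 and 0 TPM. Desmin (Des), the intermediate filament of all muscle types, stood at 337, 321, 389 and 632 TPM, highest in WT4, and the actin-binding proteins caldesmon (Cald1, 456 ± 173 TPM), filamin A (Flna, 370.0 ± 157) and Csrp1 (326 ± 34.04) were also high.

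The 3 muscle actin genes differed widely in level, and each carries CArG-like letters, the kind of sequence SRF binds, next to its start. They are shown because such letters precede a gene with a mean of 794 TPM, a gene with 3.33 TPM and a gene listed at 0. The 250 bases before the RefSeq transcript start are given in the direction of transcription (GRCm38.p6; all 3 on the minus strand; Acta2 at chr19:34255374-34255623, Acta1 at chr8:123894776-123895025 and Actc1 at chr2:114052876-114053125). Capitals mark the CArG-like letters searched for, CC then 6 letters of which at least 5 are A or T, then GG, which read the same way on both strands.
Acta2: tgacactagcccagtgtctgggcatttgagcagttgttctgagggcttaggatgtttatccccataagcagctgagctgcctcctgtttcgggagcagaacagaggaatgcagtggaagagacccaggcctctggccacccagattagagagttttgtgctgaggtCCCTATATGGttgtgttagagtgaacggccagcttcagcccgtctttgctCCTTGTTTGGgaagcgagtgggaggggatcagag
Acta1: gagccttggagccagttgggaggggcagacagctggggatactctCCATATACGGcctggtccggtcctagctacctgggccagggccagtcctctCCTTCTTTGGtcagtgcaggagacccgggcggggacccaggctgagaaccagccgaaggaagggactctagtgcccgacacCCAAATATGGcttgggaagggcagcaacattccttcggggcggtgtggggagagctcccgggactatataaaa
Actc1: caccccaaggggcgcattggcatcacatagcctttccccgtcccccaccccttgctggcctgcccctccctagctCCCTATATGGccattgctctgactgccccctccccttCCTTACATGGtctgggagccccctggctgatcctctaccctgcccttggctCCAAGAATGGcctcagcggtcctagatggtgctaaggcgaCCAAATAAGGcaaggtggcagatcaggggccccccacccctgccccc
Acta2 had 2 matches, beginning 84 and 34 bases before the start, Acta1 had 3 (205, 154 and 73 bases) and Actc1 had 4 (175, 138, 87 and 47 bases). Of 32851 promoter windows of the same length in the RefSeq table, 8.59% held at least 1 match. A match is a description of the sequence and no evidence of binding. Acta1, skeletal muscle actin, stood at 3.72, 2.65, 4.68 and 2.25 TPM, below every value of Acta2 (476 to 1029 TPM), while Actc1 was listed at 0 in all 4 libraries. Among all 6 actins the non-muscle gene Actb led with 1818, 1627, 1670.5 and 2529 TPM and 54.0% ± 3.68 of the summed TPM. The non-muscle Actg1 (699, 578, 644 and 1273 TPM) and Acta2 overlapped, with Actg1 lower in WT1, WT2 and WT3 and higher in WT4.

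The myosins were mostly of the non-muscle kind. Of 12 myosin heavy chain genes, Myh9, the main non-muscle form, made up 94.1% ± 0.693 of the TPM, with 641, 616, 560.1 and 159 TPM, and Myh10 5.90% ± 0.699, with 42.7, 41.6, 36.9 and 8.099. The other 10, cardiac, smooth, embryonic and skeletal forms among them, stayed below 1 TPM, and 4 of them (Myh1, Myh2, Myh4 and Myh8) were listed at 0 in all 4 libraries. The light chains followed the same division: the non-muscle regulatory chains Myl12a (792 ± 33.6 TPM) and Myl12b (407 ± 60.2) led, and they lie on the same strand and share exon sequence, so the split between them is uncertain. Myl2, Myl3 and Myl7, the light chains of ventricle and atrium, were listed at 0. The fast skeletal chain Mylpf stood at 5.54, 4.805, 6.39 and 5.41 TPM, above every value of Myl4.

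**Figure D3:**
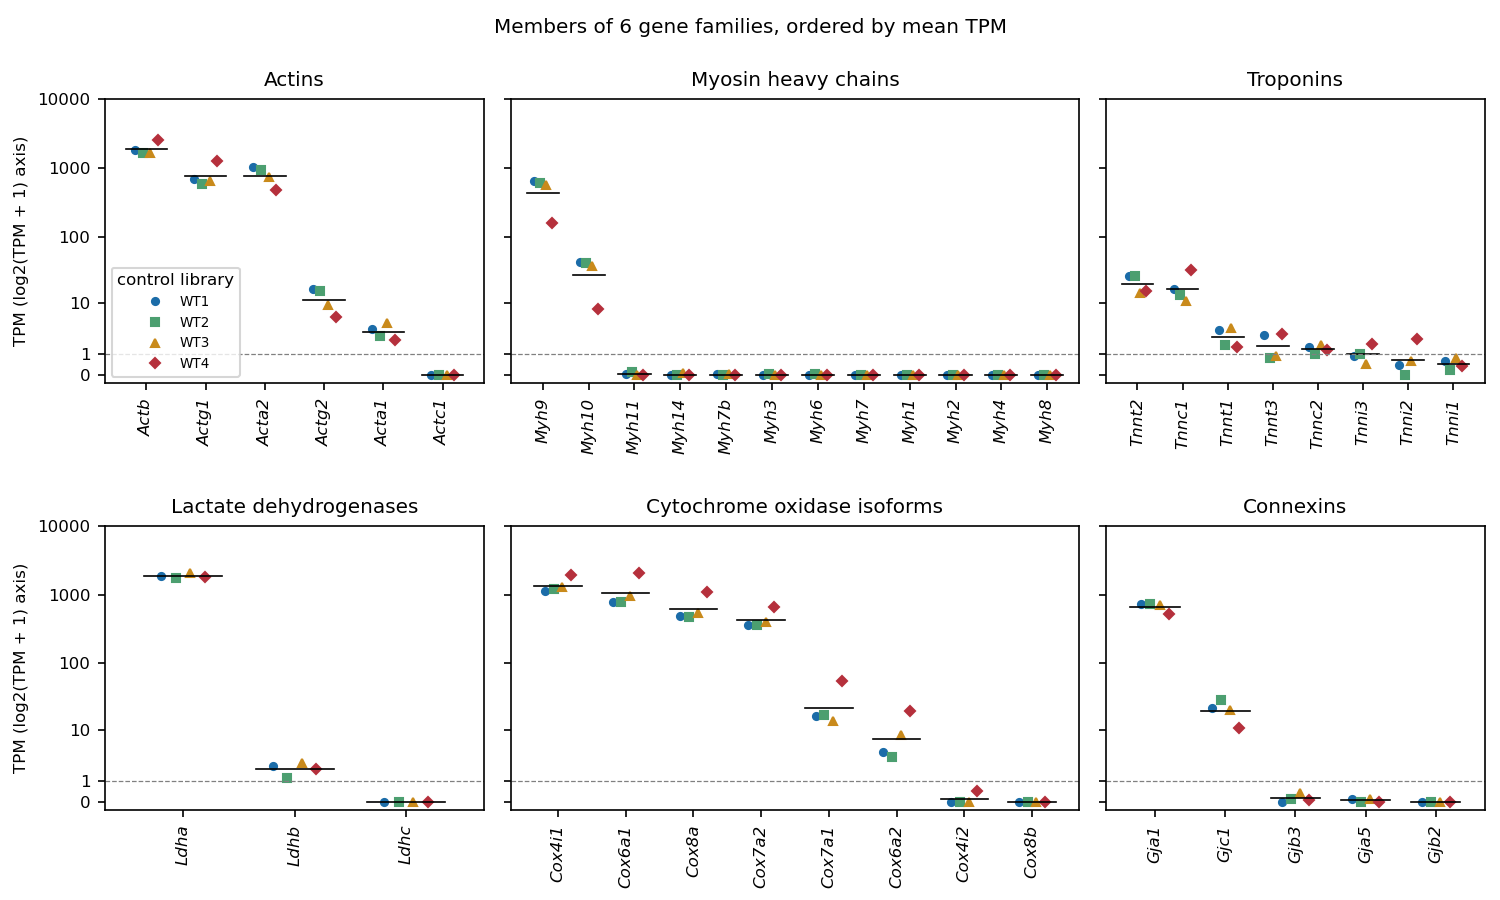
TPM of the members of 6 gene families (x axes, ordered by mean) in the 4 control libraries, on a log2(TPM + 1) axis; points are libraries, bars are means of the log2 values and the dashed line is 1 TPM. The first member of each family is a non-muscle or widely used form except for the troponins, where cardiac Tnnt2 leads at 14.4 to 26.7 TPM.

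Of 36 skeletal muscle genes in the table, 16 were expressed (44.4%), close to the share of all symbols. Among them were genes that act in committed myoblasts. Myod1, a master regulator of skeletal muscle, stood at 8.18, 5.68, 7.27 and 4.27 TPM, and its relative Myf5 at 13.7, 17.4, 13.1 and 5.96. Myogenin (Myog), which drives differentiation, stood at 0.128, 1.15, 0.861 and 0.544 TPM and passed 1 TPM in WT2 alone. Pax7, of muscle stem cells, was listed at 0. Eya1, which acts upstream of these factors, was well above the threshold at 35.2, 39.5, 40.1 and 14.3 TPM. Genes of the nerve-muscle contact were among those expressed: the acetylcholine receptor subunits Chrna1 (13.9, 14.1, 13.04 and 8.27 TPM), Chrnd (14.03, 14.6, 16.8 and 5.303) and Chrnb1 (6.26, 5.95, 5.26 and 2.801) and the receptor kinase Musk (10.7, 8.32, 6.102 and 1.05). WT4 was lowest for each of these. Genes of the mature fibre were low or at 0. Muscle creatine kinase (Ckm) was listed at 0.544, 0, 0.101 and 0 TPM, and the adult and perinatal myosins Myh1, Myh2, Myh4 and Myh8 at 0. Above 1 TPM in every library were Mylpf and Acta1, as given above, the fast fibre Z-disc gene Actn3 (10.5, 8.604, 10.2 and 6.72 TPM) and the skeletal troponins Tnnt1 (3.504, 1.77, 3.81 and 1.56) and Tnnc2 (1.56, 1.05, 1.71 and 1.33). Tnnc2 overlaps the far more abundant Ube2c (392 TPM) on the other strand, so its level is uncertain.
The summed level of the 6 defining skeletal markers was 21.3 to 41.0 TPM in the control libraries, 8.13 to 10.4 in KD and 7.35 to 15.2 in RE. Skeletal markers were not alone in this. Those of mesothelium and epicardium summed to 103.7 to 125.0 TPM in the controls, 24.8 to 32.6 in KD and 25.0 to 26.6 in RE. The summed fibroblast and atrial markers overlapped between the groups. These ranges are given side by side and were not tested.

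Connective tissue genes were broadly expressed, with 28 of 33 fibroblast and mesenchymal markers at 1 TPM or more in all 4 libraries (84.8%) and a median member at 43.9 TPM. Together they took 4.83% ± 0.687 of the TPM, of which S100a4 and Vim were the largest parts. Without S100a4 the other 32 members took 1.55%, 1.56%, 1.68% and 1.57%. The fibrillar collagen Col3a1 stood at 3039, 3179.7, 3455 and 2148 TPM, Col1a2 at 684, 665, 621 and 428 and Col1a1, its partner chain in type I collagen, at 108, 100.2, 102 and 78.3. Col1a2 exceeded Col1a1 in every library. Fibronectin (Fn1) stood at 2299, 2502, 2301 and 984 TPM, lowest in WT4. The growth factor receptors Pdgfra (50.7, 47.6, 44.8 and 14.7 TPM) and Pdgfrb (72.1, 62.9, 64.6 and 26.2), the collagen receptor Ddr2 (195, 203, 159.5 and 34.5) and the surface markers Ly6a (1153, 1270.5, 1587 and 2820.2) and Cd34 (135, 149, 144 and 121) were expressed too. Decorin (Dcn), a small matrix proteoglycan, had its highest value in WT4, at 23.6, 25.2, 36.8 and 81.4 TPM. The 4 listed at 0 in all libraries were Thy1, a surface marker of many fibroblasts, the matrix gene Lum, and the transcription factors Tcf21, of cardiac fibroblasts, and Twist1.

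Markers of other cell types were mostly missing. Over 10 lists, 25 of 133 symbols were expressed (18.8%). None of the defining markers of epithelium (Epcam, Cdh1, Krt8, Krt18), endothelium (Pecam1, Cdh5, Kdr), neurons and glia (Rbfox3, Snap25, Sox10) or liver (Alb, Hnf4a, Apoa1) reached 1 TPM in any control library. Among leukocyte genes, Ptprc and Adgre1 were listed at 0 while Cd68, a lysosomal protein, stood at 6.09, 4.31, 4.83 and 6.97 TPM and Cd14, a lipopolysaccharide co-receptor that fibroblasts can also make, at 130.0, 129.5, 141 and 174. Mesothelin (Msln), a surface protein of the lining of body cavities, stood at 108, 103, 124 and 107 TPM, with no large difference between libraries, and keratin 19 (Krt19) at 19.5, 23.7, 25 and 37.8. Wt1, a factor of the same lining and of the epicardium, lay on the threshold at 1.298, 1.02, 1.05 and 0.866 TPM, and Upk3b was listed at 0.
Single members of other lists stood high. Lpl, the lipase that frees fatty acids from lipoproteins, stood at 335, 384, 369 and 510.4 TPM, and Pparg, a regulator of fat cells, at 12, 14.1, 11.3 and 7.71, while the fat cell products Adipoq and Plin1 stayed below 1 TPM. The skeletal factors Runx2 (41.5, 39.9, 32.5 and 22.1 TPM) and Sox9 (19.9, 18.3, 17.6 and 17.2) were expressed and the cartilage gene Acan was listed at 0. Prl2c2, a placental member of the prolactin family known as proliferin, stood at 676, 619, 656 and 443 TPM and its near-identical copy Prl2c3 at 269, 250.2, 239 and 154, so the split between these copies is uncertain. Klf4 (127, 126, 101 and 23.4 TPM) was expressed and the other 10 genes of the pluripotency and germ line list were not.

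**Figure D4:**
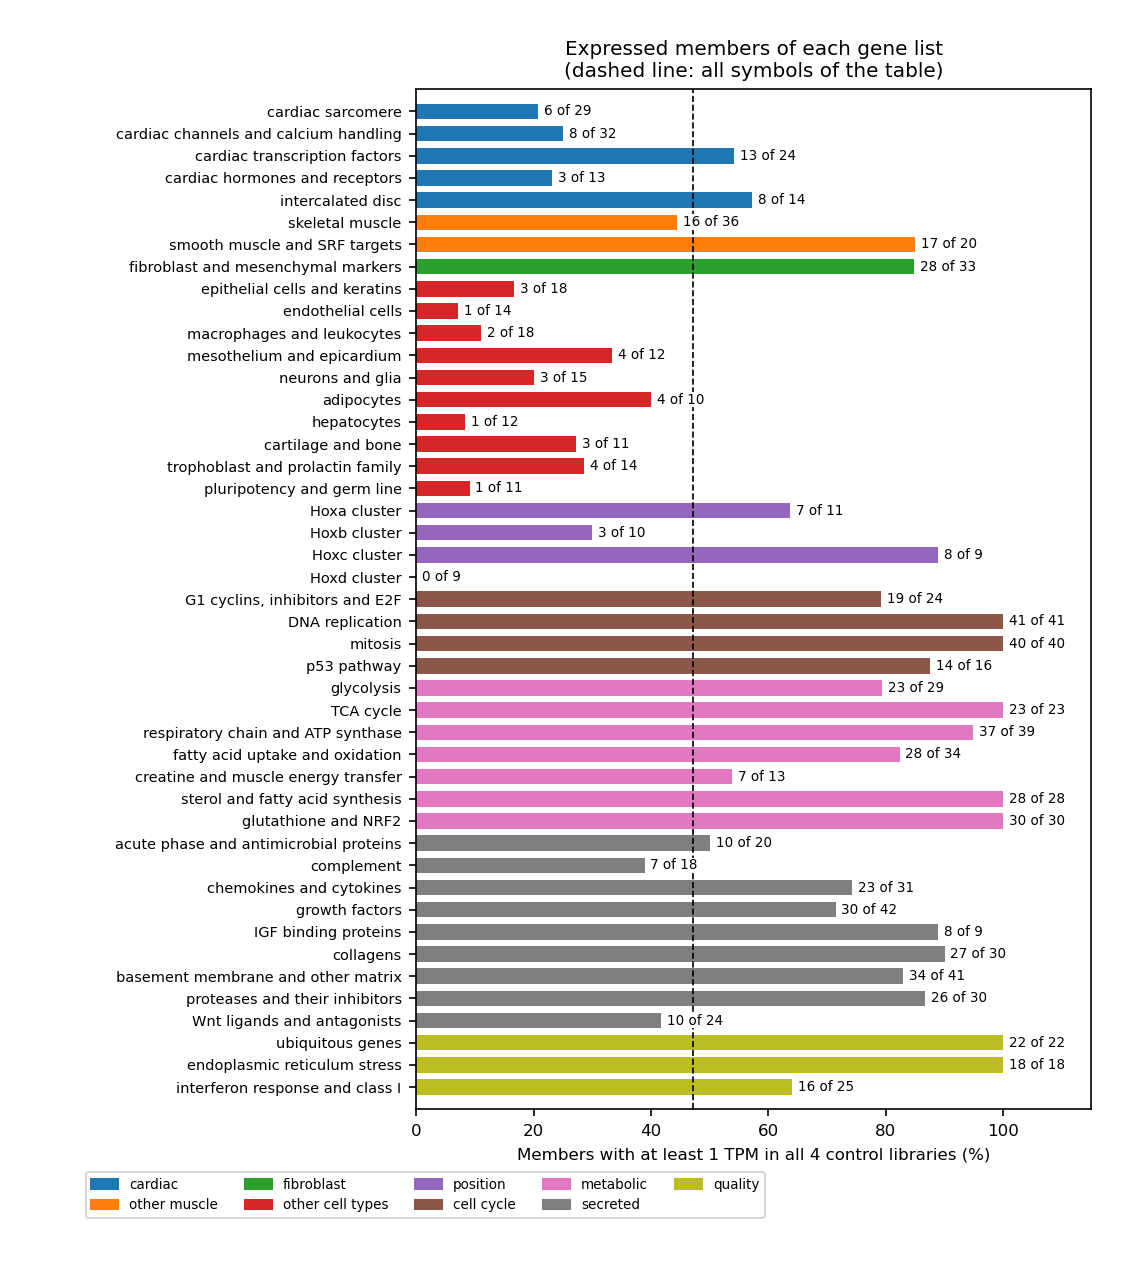
Share of the members of each of 45 gene lists (y axis) at 1 TPM or more in all 4 control libraries (x axis, percent), with the number of members at the bar ends and colours for the class of list; the dashed line is the 47.2% of all symbols. Cardiac sarcomere, channel and hormone lists and most lists of other cell types lie to the left of the line, and fibroblast, cell cycle and most metabolic and secreted lists to the right.

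Hox genes record the position along the body from which cells come and are arranged in 4 clusters, with higher numbers used further towards the tail and limb ends. In the control libraries, 8 of 9 Hoxc genes and 7 of 11 Hoxa genes were expressed, against 3 of 10 Hoxb genes and 0 of 9 Hoxd genes. The share of all symbols was 47.2%. Hoxc10 was the highest, at 109, 106, 99.5 and 81.3 TPM (chr15:102966796-102971893, plus strand, GENCODE on GRCm38). Its neighbours Hoxc6 (33.2, 34.2, 38.02 and 37.2 TPM), Hoxc9 (22.8, 23.2, 25.6 and 35.5), Hoxc11 (27.96, 28.4, 22.3 and 14.1) and Hoxc13 (20.8, 22.1, 23.3 and 28.8) followed, and Hoxc12 was listed at 0, 0, 0 and 0.164. In the Hoxa cluster Hoxa10 stood at 32.4, 39.5, 33.01 and 20.8 TPM, Hoxa9 at 18.2, 19.8, 16.9 and 17.5 and Hoxa11 at 20.7, 17.4, 18.04 and 15.7; Hoxa11 overlaps the transcript Hoxa11os on the other strand. Their paralogs on the Hoxd cluster were near 0: Hoxd10 stood at 0.195, 0.351, 0.292 and 0.178 TPM, Hoxd9 was listed at 0, 0, 0 and 0.103 and Hoxd13 at 0 in all 4. Of the Hoxb cluster the highest were Hoxb13 (2.84, 2.28, 2.12 and 4.503 TPM) and Hoxb6 (2.22, 2.795, 2.76 and 3.21).

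**Figure D5:**
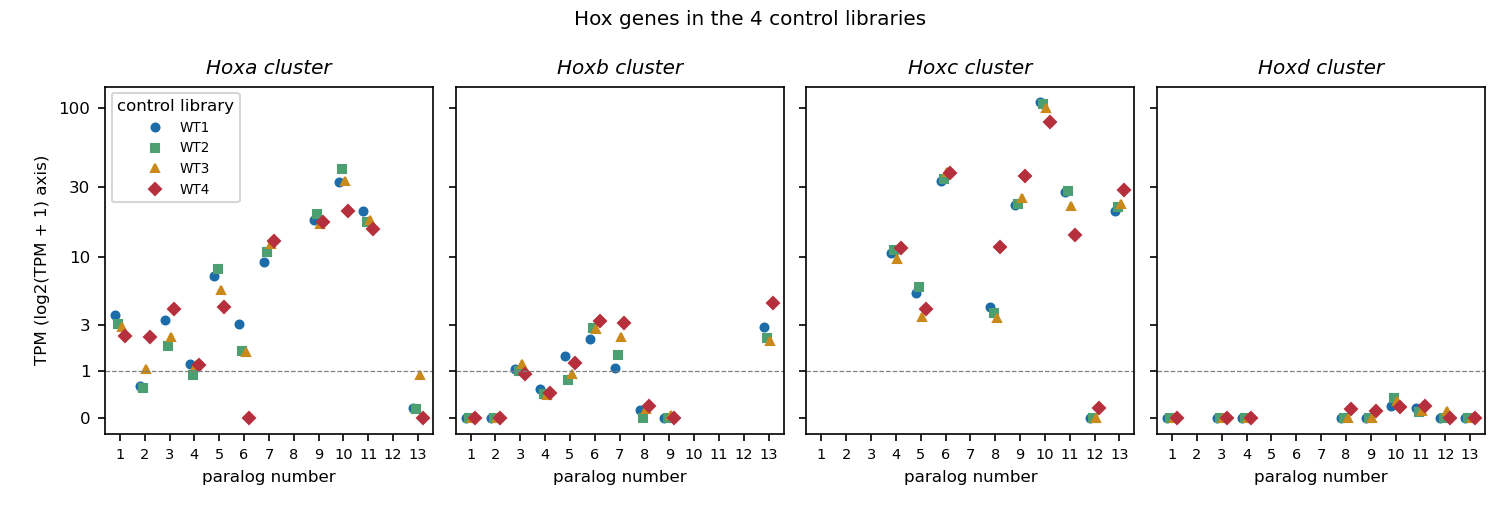
TPM of 39 Hox genes by cluster (panels) and paralog number (x axes) in the 4 control libraries, on a log2(TPM + 1) axis with a dashed line at 1 TPM; each point is a library. Hoxc10 is the highest at 81.3 to 109 TPM, and all points of the Hoxd cluster lie below 1 TPM.

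The cells expressed the machinery of division in full. All 41 DNA replication genes and all 40 mitosis genes were expressed, with median members at 76.2 and 91.4 TPM. Of the replication genes, Rrm2, a subunit of the enzyme that makes deoxynucleotides, stood at 448, 421, 354 and 145 TPM, the helicase subunit Mcm6 at 319, 308, 278 and 112 and the clamp Pcna at 170.2, 138, 148 and 111. Of the mitosis genes, Pttg1 (securin) stood at 514, 543, 505 and 734 TPM, Cdk1 at 211, 204, 192 and 208 and Top2a at 282, 269, 216 and 102. Mki67, the common marker of cycling cells, stood at 136, 114, 83.5 and 36.6 TPM. WT4 was lowest for Rrm2, Mcm6, Pcna, Top2a and Mki67 and highest for Pttg1, while Cdk1 stayed within 192 to 211 TPM. Wdr62, the spindle pole gene that the series targets in its other groups, stood at 7.45, 6.61, 6.501 and 3.38 TPM in these controls.

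The control of entry into the cycle was uneven. Cdk4 was the highest of 24 such genes and, of all genes with a mean of at least 50 TPM, the one with the smallest spread, at 731, 727, 735 and 725 TPM; its exons overlap Tspan31 on the other strand (365 TPM). Cyclin D1 (Ccnd1) stood at 239, 233, 207 and 98.04 TPM, above cyclin D3 (Ccnd3, 79.4, 66.95, 83.6 and 91.4), and cyclin D2 (Ccnd2) at 74.3, 83.7, 70.6 and 7.898, where WT4 was lower than the others. The inhibitor p21 (Cdkn1a) was high, at 379, 411, 438 and 402 TPM, and p27 (Cdkn1b) stood at 68.1, 79.8, 63.9 and 54.4. The inhibitors encoded by Cdkn2a and Cdkn2b were listed at 0 in all 12 libraries of the series. Of 16 genes of the p53 pathway 14 were expressed, with Trp53 itself at 204, 191, 198 and 147 TPM, its ligase Mdm2 at 144, 146, 114 and 55.9 and the death effector Bax at 243, 244, 251 and 388. Myc stood at 163, 156, 129.6 and 52.1 TPM, and its relative Mycn was listed at 0.

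Most genes of glycolysis were expressed, 23 of 29, and together the list took 1.09% ± 0.138 of the TPM. Pkm, the last kinase of the pathway, stood at 1835, 1722, 2037 and 2268 TPM and aldolase A (Aldoa) at 1647, 1540.0, 1947 and 2704. Of the lactate dehydrogenases, Ldha stood at 1883, 1767, 2028 and 1794 TPM and the heart form Ldhb at 2.24, 1.22, 2.696 and 1.998, so that Ldha made up 99.9% ± 0.0274 of the family. The glucose transporter Slc2a1 stood at 152, 138, 137 and 114 TPM, while the insulin-responsive transporter of heart and fat, Slc2a4, stood at 0.1198, 0.108, 0.269 and 2.32 (0.166 in the mean without WT4). Hexokinase 1 (Hk1, 200.4, 178, 204 and 117 TPM) exceeded hexokinase 2 (Hk2, 35.6, 33.4, 26.7 and 12.3) in every library. One muscle form was high: the enolase of muscle, Eno3, stood at 822, 763, 800.3 and 892 TPM. Genes with near-identical copies can be misstated here: Eno1 was listed at 2.44, 2.26, 0.916 and 0.755 TPM and its copy Eno1b at 1971, 1726, 1989 and 1886, and Gapdh stood at 215, 206, 287 and 513.

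Nearly all nuclear genes of mitochondrial energy metabolism on these lists were expressed. All 23 genes of the TCA cycle and 37 of 39 nuclear genes of the respiratory chain and ATP synthase were expressed, the latter with 2.18% ± 0.359 of the TPM. The ATP synthase subunit Atp5b led at 2888, 2895, 3046 and 2044 TPM. Citrate synthase (Cs) stood at 531, 493, 504 and 257 TPM and malate dehydrogenase (Mdh2) at 734, 694, 784 and 901. Cytochrome oxidase has subunits with a heart and muscle form and a widespread form, and the widespread form was higher in each of the 3 pairs measured. Cox6a1 stood at 784, 792, 952 and 2052 TPM against 4.27, 3.43, 8.38 and 19.8 for the muscle form Cox6a2. Cox7a2 stood at 367, 367, 399 and 664 TPM against 16.4, 17.3, 13.6 and 54.7 for the muscle form Cox7a1. Both muscle forms were highest in WT4, and their means without it were 5.36 and 15.8 TPM. Cox8a stood at 492, 469, 547 and 1106 TPM and the muscle form Cox8b was listed at 0. The pair Cox4i1 (1118, 1203, 1268 and 1912 TPM) and Cox4i2 (0, 0, 0 and 0.4103), of which the latter is a lung form, differed the same way.

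Heart muscle burns mainly fatty acids. Of 34 genes of their uptake and oxidation 28 were expressed, among them the dehydrogenase Acadm (335, 327, 330.0 and 271 TPM) and the transferase Cpt1a, the liver form that gates entry to mitochondria, at 67.1, 62.3, 61.1 and 21.5. The muscle form Cpt1b stood at 3.72, 3.41, 2.82 and 3.296 TPM, below every value of Cpt1a. The heart fatty acid binding protein Fabp3 was listed at 0, 0.201, 0.491 and 0 TPM and the transporter Cd36 at 0, 0, 0.0731 and 0, while Fabp4, of fat cells and macrophages, stood at 17.98, 22.7, 20.7 and 55.9. The regulators Ppara (0, 0.0589, 0.0657 and 0 TPM) and Ppargc1a (0.343, 0.286, 0.239 and 0.106) stayed below 1 TPM, and Esrra, their nuclear receptor partner, stood at 28.6, 25.3, 28.3 and 31.9. Exons of Esrra overlap those of Trmt112 on the other strand (55.5 TPM). In the transfer of energy to the myofibril, creatine kinases were low: Ckb stood at 1.93, 1.15, 1.05 and 4.04 TPM and mitochondrial Ckmt2 was listed at 0, while the creatine transporter Slc6a8 (44.2, 46.7, 46.4 and 33.4) and adenylate kinase (Ak1, 244, 239.8, 254 and 235) were expressed. Myoglobin (Mb), the oxygen store of heart and red muscle, was listed at 0.455, 0, 0.336 and 0 TPM.

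All 28 genes of sterol and fatty acid synthesis and all 30 of glutathione and the NRF2 response were expressed. Scd2 (825, 771, 692 and 388 TPM) and Scd1 (529, 552, 504 and 207), desaturases of fatty acids, were the highest of the first list, and the cholesterol enzyme Sqle stood at 281, 266, 237 and 186. In the second, the ferritin chains Fth1 and Ftl1 (1181, 1069, 1301 and 2069 TPM) led, followed by thioredoxin (Txn1, 697, 706, 716 and 1105) and glutathione peroxidase (Gpx1, 538, 523, 590.4 and 822). These 4 were highest in WT4. Aldh3a1, an aldehyde dehydrogenase abundant in cornea and stomach, stood at 287, 308, 320.0 and 269 TPM.

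Of 243 symbols on the lists of secreted proteins, 173 were expressed (71.2%). Of 31 chemokine and cytokine genes 23 were expressed, with 1.93% ± 0.133 of the TPM. Cxcl1, which draws neutrophils, stood at 3441, 4028, 4192 and 3229 TPM and Cxcl5, of the same kind, at 1966, 2573, 2036 and 1386. The monocyte chemokines Ccl2 and Ccl7, which lie next to each other on chromosome 11, stood at 3646, 3396, 3977 and 2576 and 3558, 3804, 3597 and 3578 TPM. The lowest of these 12 values of Cxcl1, Ccl2 and Ccl7 was that of Ccl2 in WT4. Csf1, the growth factor of macrophages, stood at 539, 563, 509.7 and 198 TPM, Il33, an alarm cytokine of stromal cells, at 273, 218, 297 and 288 and Ccl8 at 136, 155, 159.9 and 139.7. Il6 stood at 128, 112, 168 and 674 TPM, so that its mean of 271 rested on WT4 and was 136 without it. Cxcl2 (0, 0, 0.287 and 0 TPM), Il1b (0, 0.132, 0 and 0.267) and Tnf (1.04, 1.31, 1.298 and 1.18) were low, Tnf just above the threshold.
The promoter of Cxcl1 is shown because it has the highest mean of the chemokines, with values that overlap those of Ccl2 and Ccl7, and holds the letters of a well known response element. The 250 bases before its RefSeq start (GRCm38.p6, chr5:90890995-90891244, plus strand) are given 5′ to 3′, with capitals on GGG, any 2 letters, then TTTCC, searched on both strands, which resembles the recognition sequence of the inflammatory factor NF-kappa-B.
Cxcl1: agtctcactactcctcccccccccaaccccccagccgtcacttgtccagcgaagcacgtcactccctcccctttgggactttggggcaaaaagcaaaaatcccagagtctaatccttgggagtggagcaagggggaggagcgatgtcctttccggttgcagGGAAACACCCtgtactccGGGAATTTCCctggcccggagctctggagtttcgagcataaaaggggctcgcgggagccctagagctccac
The matches begin 89 and 71 bases before the start, the first of them on the reverse strand, and 1.41% of the 32851 windows held at least 1 match. A match does not show that the factor was bound.

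Among 20 acute phase and antimicrobial genes 10 were expressed, and their sum was 0.288%, 0.312% and 0.408% of the TPM in WT1 to WT3 and 1.01% in WT4. Saa3, an inducible serum amyloid protein, stood at 1292, 1409.8, 2035 and 5311 TPM (1579 in the mean without WT4). Slpi, a protease inhibitor of mucosal fluids, stood at 1102, 1179, 1463 and 3751 TPM (1248 without WT4). Lcn2, the siderophore-binding lipocalin, stood at 40.2, 43.8, 72.5 and 464 TPM (52.2 without WT4) and haptoglobin (Hp) at 71.1, 83.7, 104 and 273 (86.2 without WT4). All 4 were highest in WT4. Ceruloplasmin (Cp), the copper carrier, was lowest there, at 290.1, 303, 298 and 190.4 TPM. Of 18 complement genes 7 were expressed (38.9%), a share below that of all symbols. They were led by the proteases C1s1 (427, 431, 421 and 272 TPM) and C1ra (136, 131, 152 and 160.0) and by C3 (152, 152, 169.5 and 90.8).

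Of 42 growth factor genes 30 were expressed (71.4%, against 47.2% of all symbols). Fgf7, a growth factor of mesenchyme that acts on epithelium, was the highest at 726, 711, 624 and 309 TPM, and the vessel factor Vegfa stood at 312, 289, 257 and 159. Bmp4 stood at 92.9, 98.5, 112 and 94.5 TPM, with little difference between libraries. Igf1 (0.0451, 0.0203, 0.0169 and 0.01398 TPM) and Igf2 (0.0444, 0.1199, 0.0334 and 0.0549) stayed below 1 TPM, while H19, the non-coding neighbour of Igf2, stood at 94, 78.2, 103 and 42.6. Of 9 genes on the list of IGF-binding proteins, which also holds H19 and the receptors Igf1r and Igf2r, 8 were expressed. Igfbp6 stood at 743, 736, 935 and 1554 TPM, Igfbp7 at 867, 925, 888 and 1159 and Igfbp5 at 565, 604, 624 and 158. WT4 was highest for Igfbp6 and Igfbp7 and lowest for Igfbp5. Igfbp2 stood at 10.6, 11.1, 15.9 and 81.3 TPM (12.5 in the mean without WT4), and Igfbp3 stayed below 1 TPM. Of 24 Wnt ligands and antagonists 10 were expressed, a share close to that of all symbols. Gremlin (Grem1), an inhibitor of BMP signals placed on that list, stood at 912, 804, 762 and 75.1 TPM, more than 10 times lower in WT4 than in each of the others. Sfrp4, a Wnt-binding inhibitor, stood at 40.9, 33.1, 46.8 and 85.4 TPM, and Wnt5a and Dkk1 were listed at 0.

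Most matrix genes were expressed: 27 of 30 collagen genes and enzymes, 34 of 41 other matrix genes and 26 of 30 proteases and inhibitors. Next to Col3a1, Col6a1 stood at 639.8, 627, 737 and 433 TPM and the collagen chaperone Serpinh1 at 1123, 1050.5, 1154 and 886. Col4a1 (217, 213, 191 and 77.2 TPM) and Col4a2 (202, 189, 182 and 90.2), the paired chains of basement membrane collagen, lay close together, with Col4a1 higher in WT1, WT2 and WT3 and lower in WT4. Sparc, a collagen-binding protein, stood at 2239, 2174, 2460.3 and 2755 TPM and the cross-linking enzyme Lox at 692, 721, 553 and 354. Elastin (Eln) was listed at 0, and periostin (Postn), a marker of activated fibroblasts, stood at 10.5, 8.603, 5.51 and 1.54 TPM. Among protease inhibitors, Timp1 stood at 1231, 1227, 1231 and 2747 TPM and cystatin C (Cst3) at 1204, 1175, 1438 and 2591, both highest in WT4. Mmp14 stood at 205, 207, 200.1 and 146 TPM and the gelatinase Mmp2 at 20.4, 20.3, 18.9 and 24.5.

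All 18 genes of endoplasmic reticulum stress were expressed, with a median member at 316 TPM and 1.07% ± 0.0276 of the TPM, below the 767 TPM and 2.46% ± 0.0944 of the 22 ubiquitous genes. The chaperone Hspa5 stood at 1375, 1423, 1355 and 1745 TPM, the transcription factor Atf4 at 1633, 1599, 1476 and 911 and its target Ddit3 at 1000.1, 966, 948 and 822. All 22 ubiquitous genes were expressed, and 16 of 25 interferon and class I genes, with B2m at 1218, 1362, 1374 and 1706 TPM and the class II gene H2-Aa listed at 0.

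The spread between libraries was uneven across genes. Of 3740 genes with a mean of at least 50 TPM, 150 had an SD of at least 1 on the log2(TPM + 1) scale, and 2 did when WT4 was left out. The largest spreads belonged to the small nucleolar RNA genes Snora23 (657, 0, 174 and 0 TPM) and Snora78 (0, 0, 0 and 457), each listed at 0 in some libraries. They were followed by messages that were far lower in WT4, such as Mob1a, a kinase activator of the Hippo pathway, at 121, 117, 89.5 and 0.7999 TPM, and the cohesin regulator Pds5a at 91.5, 84.9, 64.04 and 2.39. The most even genes after Cdk4 were Tomm40, the pore of protein import into mitochondria (141, 140.4, 141 and 144 TPM), the proteasome subunit Psmd13 (244, 240.0, 246 and 240.4) and the heart and muscle adenine nucleotide carrier Slc25a4 (684, 665, 680.0 and 679).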

How the data were processed

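The values are TPM, which the authors deposited as 1 table of 23184 symbols by 12 libraries; each column sums to 1000000, so depth is unknown and no counting interval is given. Trim Galore 0.6.6, TopHat2 2.1.1, Cufflinks 2.2.1 and the mm10 build are named in the submitters' processing notes; how TPM was made from them and whether strand was used are not given in the sources used here. Mitochondrially encoded genes were not analysed here, and some list members that count in the totals are not reported here by name.

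From these values, means, SD over the 4 control libraries and counts at the threshold of 1 TPM were computed with Python 3.11.15, pandas 2.3.3 and NumPy 2.4.6, and the scripts were tested on simulated data. No test compares groups. Spread was taken on the log2(TPM + 1) scale. Transcript lengths, positions and overlaps came from GENCODE on GRCm38 and promoters from RefSeq on GRCm38.p6.

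The members, the 45 gene lists and the rule for names were chosen with earlier results of these data known. Named genes were the 30 highest, up to 5 highest members of each list, 65 defining markers of 12 cell types, the members of 16 families, and the 10 most and 10 least variable genes with a mean of at least 50 TPM; symbols of predicted genes and clones were left out. Other names were chosen after their values were seen, to show members that were low, overlapping genes or near-identical copies. Alternatives were thresholds of 0.5, 2 and 5 TPM, a mean in place of every library, a pseudocount of 0.1, median-of-ratios scaling, quantile normalization, removal of a smooth length trend (lowess, fraction 0.5, statsmodels 0.14.6), ranking by the median, and leaving out each library.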

Additional observations from a re-analysis of the deposited data

Results flagged for a closer look

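A library lay far from the other 3 (its gap to the nearest value, as a part of the whole range, was above Dixon's 95% critical value) for 58 of the 250 genes with values above 0 that the text names, and in 48 of them that library was WT4. The rule reads the gap against the range and not the size of a change. Chance flags about 1 in 20 groups of this size; 23.2% of these genes met the rule, and 16 of them were listed at 0 in 3 libraries, where any value in the other meets it. Among the 213 named genes with a mean of at least 1 TPM the share was 19.7%, against 16.0% of the 11724 symbols with such a mean. Some named genes were chosen for their spread over these libraries and others after their values were seen. A higher share among them is therefore partly built in. WT4 also departed from the others by transcript length, and the part of length in these values was not tested.

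WT4 was far above the others for Lcn2 at 464 TPM, Il6 at 674, Hp at 273, Igfbp2 at 81.3, Slpi at 3751 and Timp1 at 2747. It was also high for the cytochrome oxidase subunits Cox6a1 (2052 TPM), Cox7a1 (54.7), Cox7a2 (664), Cox8a (1106) and Cox4i2 (0.4103). Others that were high there were S100a4 (42737 TPM), Rps21 (9387), Txn1 (1105), Pttg1 (734), Bax (388), Fabp4 (55.9), Stmn2 (79.4), Tpm2 (293), Tpm3 (315), Slc2a4 (2.32) and Snora78 (457). The acute phase list took 1.01% of the TPM in WT4 and the fibroblast list 5.85%, both far above the other 3 libraries. Without S100a4 the fibroblast list took 1.57% in WT4, within the 1.55% to 1.68% of the other 3.

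WT4 was far below the others for Fn1 at 984 TPM, Gja1 at 531, Vcl at 45.8, Ctnna1 at 128, Pkp2 at 4.59, Myh9 at 159, Myh10 at 8.099, Mmp14 at 146 and Pdgfra at 14.7. It was also low for Atp5b at 2044 TPM, Cs at 257, Acadm at 271, Cpt1a at 21.5 and Scd1 at 207. The same held for Atp2a2 (67.02 TPM), Kcnj2 (13.2), Mef2d (9.15), Csf1 (198), Igfbp5 (158), Cp (190.4) and C1s1 (272).

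Ccl7 stood at 3804 TPM in WT2 against 3558 to 3597 in the others, a wide gap for its range and a small difference in level. The remaining genes of this kind were listed above 0 in 1 library and at 0 in the other 3. In WT1 these were Adipoq (0.163 TPM) and Cdh1 (0.0367). In WT2 they were Nppa (0.258 TPM), Isl1 (0.06099) and Krt8 (0.0451). In WT3 they were Cxcl2 (0.287 TPM), Eif2s3y (0.0768), Cd36 (0.0731) and Cdh5 (0.0615). In WT4 they were Apoa1 (0.131 TPM), Hoxc12 (0.164), Hoxd9 (0.103), Krt18 (0.0831) and Myh7 (0.00813).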

How the results depend on the processing

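The count of expressed symbols was 8789 to 11724 over all alternatives (10946 as reported), and 11423 without WT4. The median spread was 0.126 to 0.474 (SD of log2 values) when a library was left out, against 0.405 as reported, the lowest without WT4. At 5 TPM the count fell to 19 for the 2 other muscle lists, 10 for the Hox genes, 7 for skeletal muscle, 5 for Wnt genes, 4 for Hoxa, 1 each for cardiac hormones and receptors, epithelium and leukocytes, and 0 for endothelium and Hoxb. At 2 TPM it was 1 for cardiac hormones and receptors, 1 for epithelium and 0 for endothelium. At 0.5 TPM, and with a mean of at least 1 TPM, it was 5 for cardiac hormones and receptors and 5 for Hoxb. The other list counts stayed within 1.5 times under the alternatives run. Of 444 gene means, 28 moved by more than 1 SD when the length trend was removed, 6 with median-of-ratios scaling and 6 with quantile normalization. The counts for cardiac hormones and receptors, epithelium and endothelium rest in part on values between 1 and 2 TPM, and the unknown depth leaves the precision of such low values unknown. No paired analysis was possible because no result comes from a test between groups.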

Other observations

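The tropomyosins, which lie along actin filaments, were expressed from all 4 genes: beside Tpm1, Tpm4 stood at 718, 720.0, 648 and 493 TPM, Tpm3 at 253, 263, 257 and 315 and Tpm2 at 176, 180.5, 189 and 293. The ranges of Tpm1 and Tpm4 overlapped, and so did those of Tpm3 and Tpm2. Within every library, however, Tpm1 exceeded Tpm4 and Tpm3 exceeded Tpm2. Single genes of 2 lists of absent cell types were well above 1 TPM. Stmn2, a microtubule regulator of growing neurons, stood at 36.1, 40.4, 32.6 and 79.4 TPM and nestin (Nes), a filament of neural and muscle precursors, at 105, 93.7, 82.03 and 47.9. Foxa2, a factor of the gut and liver, stood at 12.3, 9.28, 12.2 and 5.74 TPM while the other 11 genes of the liver list stayed below 1 TPM in all 4 libraries. Further secreted proteins at high level were the collagen processing cofactor Pcolce (1054, 959, 1121 and 1673 TPM), the vessel growth inhibitor Serpinf1 (885, 944, 971 and 1144) and the protease Ctsl (1162, 1235, 1354 and 1734), which were all highest in WT4.

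Some values were singled out after the data were seen. Xist, the RNA that coats the inactive X chromosome of female cells, stood at 196, 185, 117 and 46.6 TPM, while the Y-linked genes Ddx3y, Kdm5d and Uty were listed at 0 in all 4 libraries and Eif2s3y at 0, 0, 0.0768 and 0. Cdkn2a and Cdkn2b, listed at 0 in all 12 libraries, lie on chromosome 4 beside Mtap, which stood at 132, 128, 122 and 72.7 TPM in the controls.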
